A study of Homo sapiens with 9 samples.

Results

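The 616 regions described here had peaks of at least 2 of the 3 ARID subunits of SWI/SNF, a chromatin remodeling complex, in HepG2 cells. They shared no base with a peak of SNF5, a core subunit of the complex. They were chosen by pooling the ARID1A, ARID1B and ARID2 peaks, merging peaks that overlapped by 1 bp or more into 25247 regions, and keeping those that held peaks of 2 or 3 ARIDs and no SNF5 peak. Of the 6389 regions shared by 2 or 3 ARIDs, 9.64% had no SNF5 peak, a share that the selection itself defines. The other 5773 shared regions overlapped SNF5, and 9478 regions with a peak of a single ARID also had no SNF5 peak. These are used for comparison.

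HepG2 is an established human liver cancer line, and the cells carried no treatment or genetic change named in the labels. The 9 libraries comprised 2 replicates for each of the 4 antibodies (ARID1A, ARID1B, ARID2 and SNF5) and 1 input. Chromatin was crosslinked with formaldehyde and fragmented with micrococcal nuclease, which cuts between nucleosomes. The peaks of each subunit had been called once, on both replicates merged, so the values below carry no error between replicates, and library depths are unknown. Intervals are Wilson 95% intervals, which cover counting error over regions only. Tests compare these 4 lists with each other and not conditions, since regions are not replicates. The absence of a peak means that SNF5 signal did not pass the threshold of the peak caller, and occupancy below that threshold cannot be told apart from none.

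SWI/SNF complexes use ATP to slide or evict nucleosomes. ARID1A and ARID1B are alternative, mutually exclusive subunits of the BAF form, whereas ARID2 belongs to the PBAF form. SNF5, also called SMARCB1, INI1 or BAF47, is common to both forms and contacts the nucleosome. A region with peaks of 2 ARIDs therefore held signal of subunits from different complexes, and SNF5 belongs to each of these complexes. Whether assembled complexes gave this signal was not tested.

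Before the values, the sequences of 5 regions are shown as examples, to show which bases the ARID peaks covered in common. For each combination of ARIDs, 1 or 2 regions are given from the 2 farthest from SNF5 among those of at most 300 bp that overlapped no annotated exon. They are named by the nearest gene in the deposited lists and read from the plus strand of GRCh37, the same assembly as hg19. Capitals mark bases covered by a peak of every ARID in the region.
SLITRK3: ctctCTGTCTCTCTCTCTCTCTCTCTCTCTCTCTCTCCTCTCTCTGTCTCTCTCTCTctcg
HERC2P3: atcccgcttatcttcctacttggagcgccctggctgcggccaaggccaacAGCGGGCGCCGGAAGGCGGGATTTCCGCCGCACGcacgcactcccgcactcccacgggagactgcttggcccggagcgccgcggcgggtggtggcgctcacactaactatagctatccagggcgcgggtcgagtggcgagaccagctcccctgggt
DACT2: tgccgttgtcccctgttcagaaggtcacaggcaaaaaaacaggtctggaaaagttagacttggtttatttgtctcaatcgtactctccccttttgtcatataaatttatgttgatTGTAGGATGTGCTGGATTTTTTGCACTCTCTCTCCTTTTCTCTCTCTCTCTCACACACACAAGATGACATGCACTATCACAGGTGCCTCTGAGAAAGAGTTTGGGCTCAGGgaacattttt
RP1-7G5.5: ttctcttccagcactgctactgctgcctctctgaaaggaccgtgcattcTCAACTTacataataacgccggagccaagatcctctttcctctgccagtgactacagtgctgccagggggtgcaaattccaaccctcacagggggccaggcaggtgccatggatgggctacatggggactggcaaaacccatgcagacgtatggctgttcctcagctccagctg
RP11-927P21.4: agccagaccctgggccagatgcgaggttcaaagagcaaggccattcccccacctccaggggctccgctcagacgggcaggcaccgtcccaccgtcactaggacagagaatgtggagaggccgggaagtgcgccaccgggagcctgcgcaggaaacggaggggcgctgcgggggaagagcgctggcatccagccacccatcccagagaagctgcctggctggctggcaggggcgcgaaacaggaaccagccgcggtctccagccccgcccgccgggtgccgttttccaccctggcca

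The SLITRK3 region (chr3:164914679-164914739, an intron close to the gene start) held ARID1A and ARID2, lay 1633086 bp from SNF5 and consisted almost wholly of a CT repeat over its 61 bp. The HERC2P3 region (chr15:20711593-20711798) held ARID1A and ARID1B, at 377248 bp from SNF5. It overlapped no annotated gene but had the deposited promoter class, 199 bp from the deposited gene start. Its widest peak carried an active promoter state. There 29.3% of the 50-base stretches occurred once in the genome, so most of its sequence has another copy. It had 23 CpG dinucleotides in 206 bp.

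The DACT2 (chr6:168727229-168727464, intergenic) and RP1-7G5.5 (chr12:110300148-110300370, an intron of GLTP) regions held ARID1B and ARID2, at 51989 bp and 17394 bp from SNF5. Both peaks covered 111 bp in the DACT2 region but only 7 bp in the RP1-7G5.5 region. The RP11-927P21.4 region (chr17:62772845-62773140, an intron of a read-through pseudogene transcript) held all 3 ARIDs, at 2208 bp from SNF5. At RP11-927P21.4 the 3 peaks formed a chain, with 0 bp covered by all of them, and its sequence is therefore printed without capitals.

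A BAF and a PBAF subunit were combined in 513 of the 616 regions (83.3%, 80.1 to 86.0%), against 87.9% (87.0 to 88.7%) of the shared regions with SNF5. ARID1A with ARID2 accounted for 390 regions, ARID1A with ARID1B for 103, ARID1B with ARID2 for 74, and all 3 ARIDs for 49. As a share of all shared regions of the same combination, those without SNF5 made up 12.4% for ARID1A and ARID2 (11.3 to 13.6%), 12.9% for ARID1A and ARID1B (10.7 to 15.4%) and 13.8% for ARID1B and ARID2 (11.2 to 17.0%). These 3 intervals overlapped. With all 3 ARIDs the share was 2.57% (1.95 to 3.38%), and this interval lay below the others. Among regions with a single ARID, SNF5 was missing from 44.9% for ARID1A, 55.5% for ARID1B and 51.5% for ARID2. A wider region has more bases that can overlap a peak, and these shares were not adjusted for width. Among regions without SNF5 the median width was 392 bp with all 3 ARIDs. It was 265 to 313 bp for the pairs and 133 bp with a single ARID. In all, the 616 regions held 542 ARID1A, 227 ARID1B and 515 ARID2 peaks, and 52 regions held more than 2 peaks.

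The distance to SNF5 split these regions into those that just missed a peak and those far from one. The median gap between region and nearest SNF5 peak was 855 bp, with quartiles of 192 and 19707 bp. A gap of at most 100 bp was found for 97 regions, and 318 regions (51.6%) lay within 1000 bp. A further 106 lay between 1000 and 10000 bp, 138 between 10000 and 100000 bp, and 54 (8.77%) beyond 100000 bp. Regions of ARID1B with ARID2 lay closest, with a median of 309 bp and 50 of 74 within 1000 bp. The medians of the other combinations were 1037 bp for ARID1A and ARID2, 1074 bp for ARID1A and ARID1B, and 1074 bp for all 3 ARIDs. Single-ARID regions without SNF5 had a median gap of 1278 bp, and 47.1% of them lay within 1000 bp.

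**Figure D1:**
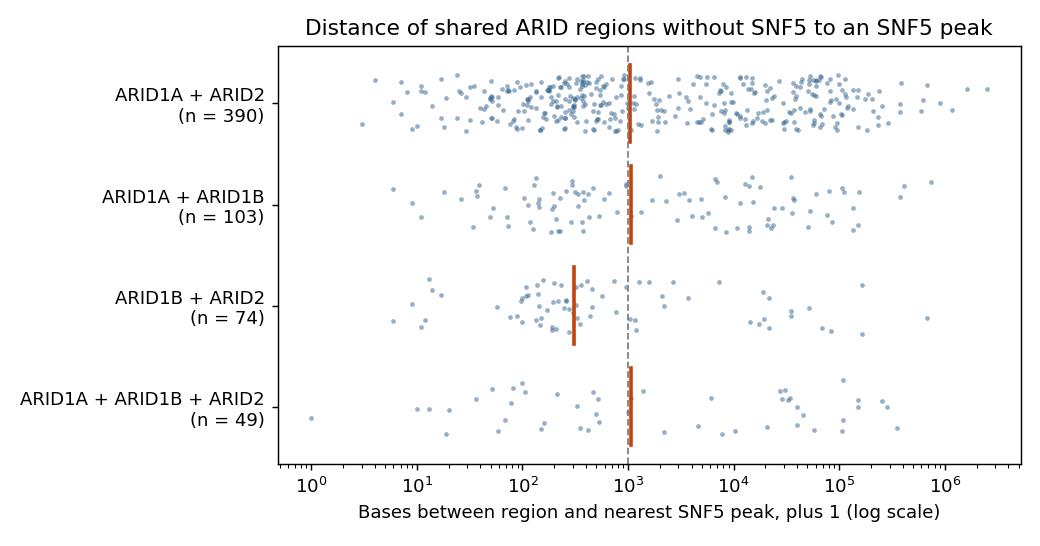
Each point is 1 shared ARID region without SNF5, placed by the number of bases to the nearest SNF5 peak plus 1 (log axis) and grouped by ARID combination, with a vertical bar at the median and a dashed line at 1000 bp. The medians of 3 combinations lie near the dashed line, while that of ARID1B with ARID2 is 309 bp, and gaps reach 2494297 bp.

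The values at the edge of the selection show how thin that edge was. The regions nearest to SNF5 were at MYCBP2, a ubiquitin ligase gene (chr13:77900940-77901409, gap 0 bp), SPAG16 (chr2:214148786-214149178, gap 2 bp), BMP4, a secreted growth factor (chr14:54423535-54423866, gap 3 bp), DDOST, a subunit of the oligosaccharyltransferase (chr1:20987501-20987718, gap 5 bp) and CTA-268H5.9 (chr22:45676125-45676219, gap 5 bp). At MYCBP2 all 3 ARIDs were present and the SNF5 peak ended on the adjacent base. Just outside the selection, the shared regions at TUBGCP6 (chr22:50683249-50683510), TXN2 (chr22:36878005-36878170), CSF3R (chr1:36952491-36952830), GATA2 (chr3:128207901-128208315) and UNG (chr12:109535981-109536278) overlapped SNF5 by 1, 2, 2, 2 and 3 bp. Within 10 bp of the edge there were 18 regions on the selected side and 16 on the other.

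The SNF5 peaks beside the selected regions were close to the typical SNF5 peak in score and width. The 316 SNF5 peaks that were the nearest one within 1000 bp had a median caller score of 20 (quartiles 17.0 and 24.3) and a median width of 509 bp. Over all 20718 SNF5 peaks the median score was 19 and the median width 535 bp, whereas the 5077 SNF5 peaks that lay on shared ARID regions had a median score of 24.0 and a median width of 1066 bp. Of the 316 neighbouring peaks, 170 (53.8%) overlapped some other ARID region and 87 (27.5%) overlapped another shared one. SNF5 peaks flanked 67 regions on both sides within 1000 bp. Within the same distance, 298 of the 616 regions had another ARID region, most often a single-ARID region without SNF5 (132 regions).

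Among regions farther than 1000 bp from SNF5, 80.5% (75.7 to 84.6%) were promoters, against 77.6% of all 616 regions. The farthest included the promoters of SNX7, a sorting nexin (chr1:99127399-99127792, gap 903401 bp), NPM1, nucleophosmin (chr5:170814597-170814801, gap 617842 bp), and ZNF714, a zinc finger gene (chr19:21264888-21265271, gap 677263 bp), each with ARID1A and ARID2. AP5M1, an adaptor complex subunit (chr14:57735755-57735912, gap 685013 bp), had ARID1B and ARID2. PPP2R3B, a phosphatase subunit gene (chrX:347695-348053, gap 1162670 bp), had ARID1A and ARID2 in the deposited promoter class. The SNX7, NPM1, ZNF714 and AP5M1 regions each overlapped an annotated exon with untranslated sequence at the gene start. Also among them were the SLITRK3 region printed above and 2 regions of the deposited distal class with ARID1A and ARID1B. These 2 were at FAM27C (chr9:44992354-44993246, gap 739038 bp) and NAA11 (chr4:80274333-80274708, gap 413804 bp), and both carried a repetitive chromatin state. In the Gencode v44 annotation the FAM27C region overlapped an exon and a transcript start, whereas the NAA11 region was intergenic. At FAM27C 5.92% of the 50-base stretches were single-copy, against 100% at NAA11.

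The comparison with shared regions that did overlap SNF5 asked whether the regions lacking it sat at different kinds of sites. The 4 features that the selection did not use were compared by two-sided Fisher exact tests, adjusted with the Benjamini-Hochberg method over 8 comparisons. By the deposited feature class, 478 of 616 regions (77.6%) were promoters (74.1 to 80.7%), 66 were intronic, 59 distal and 13 exonic. Of the shared regions with SNF5 73.7% were promoters, and over all merged regions the share was 57.9%. The difference was 3.91 percentage points (Newcombe 95% interval 0.27 to 7.23, adjusted exact p = 0.060) and did not pass the threshold of 0.05. It had the same direction on 15 of 23 chromosomes. It passed under 7 of 8 alternatives, from 4.19 points on autosomes alone (adjusted exact p = 0.041) to 8.79 points within 5 strata of region width (Mantel-Haenszel chi-square test, adjusted p = 1.6e-05).

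A transcript start of the Gencode v44 annotation lay within 1000 bp of 79.5% of the regions without SNF5, 77.0% of those with it and 61.3% of all merged regions. The difference of 2.50 points (-1.03 to 5.69) gave an adjusted exact p of 0.20. Within strata of width it was 7.58 points and passed (Mantel-Haenszel chi-square test, adjusted p = 0.00011). A promoter chromatin state on any of the peaks was found in 91.1%, against 89.1% with SNF5 and 70.3% of all merged regions, a difference of 1.93 points (-0.70 to 4.10, adjusted exact p = 0.20). Within strata of width it was 3.86 points and passed (Mantel-Haenszel chi-square test, adjusted p = 0.0077). CpG-rich sequence, defined as GC content of at least 55% with an observed to expected CpG ratio of at least 0.6, made up 60.4%, against 62.0% with SNF5 and 38.0% of all merged regions. This difference of -1.61 points (-5.71 to 2.38, adjusted exact p = 0.43) turned to 7.995 points (adjusted exact p = 0.0095) when regions within 1000 bp of SNF5 were counted as bound.

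Against single-ARID regions without SNF5, the shared regions without SNF5 had higher shares of each of the 4 features. Promoter class was found in 47.0% of the single-ARID regions, 30.6 points lower (27.0 to 33.9, adjusted exact p = 7.7e-51). A transcript start within 1000 bp was found in 50.5% (29.1 points lower, adjusted exact p = 3.3e-47), CpG-rich sequence in 24.4% (36.0 points lower, adjusted exact p = 2.0e-73) and a promoter chromatin state in 62.8% (28.3 points lower, adjusted exact p = 7.2e-55). A state or class was scored on any peak, and shared regions hold more peaks. By the widest peak only, the difference in promoter state was 14.03 points (adjusted exact p = 1.1e-12). Each of these had the same direction on 23 of 24 chromosomes. Single-ARID regions were narrower, with a median of 133 bp against 304 bp, and within 5 strata of width the promoter class difference was 23.8 points (Mantel-Haenszel chi-square test, adjusted p = 1.2e-27).

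The widest peak of most regions lay in a promoter chromatin state. An active promoter state was assigned to 390 regions (63.3%, 59.4 to 67.0%) and a weak promoter state to 82 (13.3%, 10.9 to 16.2%). The corresponding shares with SNF5 were 57.0% and 11.1%. A strong enhancer state (state 4) was assigned to 93 regions (15.1%, 12.5 to 18.1%), against 21.7% (20.6 to 22.8%) with SNF5. The source of these states was not given in the sources used here. Taking the state of the widest peak only, promoter states were 8.31 points more frequent without SNF5 than with it (adjusted exact p = 2.4e-05).

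The difference from shared regions with SNF5 varied between ARID combinations. At regions of ARID1B with ARID2, 46 of 74 (62.2%) were promoters without SNF5, against 36.0% of 461 with SNF5. This difference of 26.2 points (13.9 to 37.2) had a two-sided Fisher exact p adjusted over 4 combinations of 0.00013. The same combination had more CpG-rich regions, at 35.1% against 15.2% (19.95 points, 9.43 to 31.7, adjusted exact p = 0.00049), and more transcript starts within 1000 bp, at 66.2% against 39.9% (adjusted exact p = 0.00011). Its promoter share was 62.0% (48.2 to 74.1%) for the 50 regions within 1000 bp of SNF5 and 62.5% (42.7 to 78.8%) for the 24 farther away, and 14 of the 50 and 12 of the 24 were CpG-rich.

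At regions of ARID1A with ARID2 the promoter share was 85.9% without and 86.3% with SNF5, a difference of -0.42 points (-4.42 to 2.96). CpG-rich sequence there was less frequent without SNF5, at 67.2% against 74.6% (-7.46 points, -12.5 to -2.69, adjusted exact p = 0.0042). Of the regions of this combination near an SNF5 peak 59.3% were CpG-rich, whereas the share was 75% beyond 1000 bp. At regions of ARID1A with ARID1B, 53.4% without and 52.0% with SNF5 were promoters (1.39 points, -8.87 to 11.4). With all 3 ARIDs, 42 of 49 (85.7%) were promoters without SNF5 against 72.4% with it (13.3 points, 0.73 to 20.8, adjusted exact p = 0.099). The differences between combinations were themselves tested by a likelihood ratio chi-square test of a logistic model, with adjusted p = 0.0011 for promoter class, 0.00039 for transcript starts, 3.1e-05 for CpG-rich sequence and 0.45 for promoter chromatin state. This split by combination was examined after the pooled values were known.

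**Figure D2:**
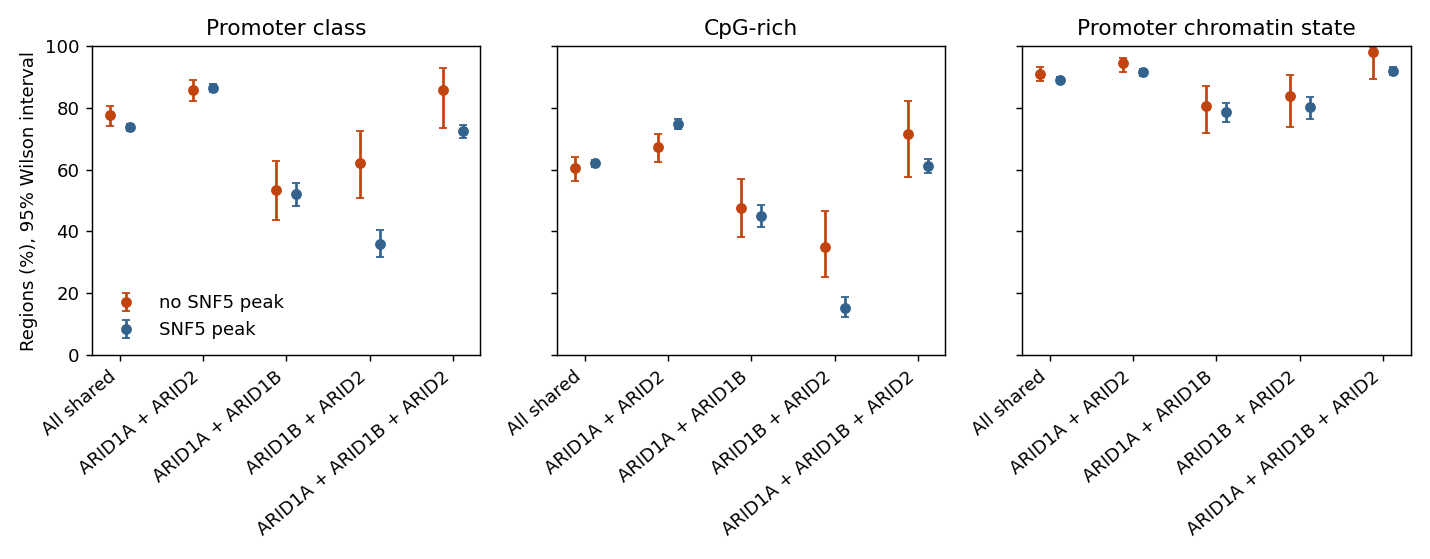
Points give the percentage of shared ARID regions in the promoter class, with CpG-rich sequence and with a promoter chromatin state, for all shared regions and for each ARID combination, without and with an SNF5 peak, and bars are Wilson 95% intervals. For ARID1B with ARID2 the promoter share is 62.2% without SNF5 and 36.0% with it, and the intervals do not overlap.

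Near and far regions also differed in where they sat at a gene. Of the 241 start-proximal regions farther than 1000 bp from SNF5, 202 (83.8%) had their midpoint within 250 bp of the transcript start, and the median distance was 63.0 bp. Of the 249 start-proximal regions with SNF5 within 1000 bp, 146 (58.6%) did so, with a median of 177 bp. Shared regions with SNF5 lay between, at 75.6% and 94.0 bp. In the near group the midpoint lay downstream of the start for 141 regions (56.6%, 50.4 to 62.6%). The share was 49.4% (43.1 to 55.6%) in the far group, an overlapping interval, and 48.4% (47.0 to 49.9%) with SNF5. The midpoints of the ARID region and of the nearest SNF5 peak lay on opposite sides of the start in 133 of the 249 (53.4%). Among the shared regions with SNF5 the share was 37.5%. By choice, region and SNF5 peak overlap in the latter group and do not in the near group, so the selection bears on this difference. These values describe the regions and were not tested.

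**Figure D3:**
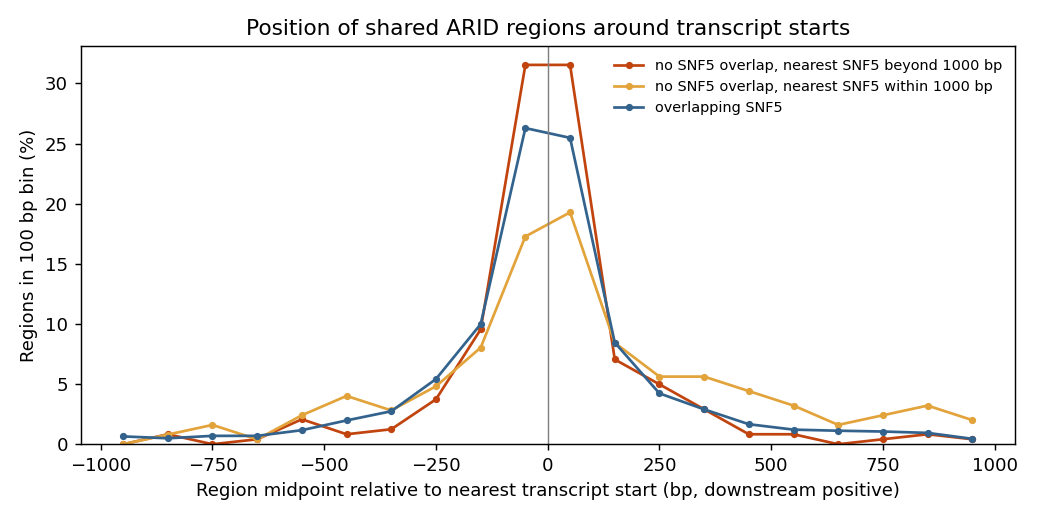
Lines give the percentage of start-proximal shared ARID regions per 100 bp bin of the distance from region midpoint to the nearest transcript start (bp, downstream positive), for regions overlapping SNF5 and for regions without overlap whose nearest SNF5 peak was within or beyond 1000 bp. Regions far from SNF5 form the sharpest peak at the start, and those with SNF5 within 1000 bp the broadest.

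A protein-coding start lay within 1000 bp of 451 of the 490 start-proximal regions (92.0%, 89.3 to 94.1%), against 90.2% with SNF5, and starts on both strands lay near 40.4% (36.2 to 44.8%), against 43.4% with SNF5. The regions named 635 nearest genes in the deposited lists. Of these, 158 (24.9%) were also the nearest gene of a shared region with SNF5, against 40.03% of the 12428 gene names with any ARID region, which include genes named by that group itself. Of all these gene names, 5.11% were among the 635, which is the background for the lists below.

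Of 18 hepatocyte transcription factor genes with an ARID region, 2 (11.1%) were the nearest gene of a shared region without SNF5. These were HNF4A and GATA4. HNF4A, a nuclear receptor that maintains hepatocyte identity, had ARID1A and ARID2 at 149 bp from SNF5 (chr20:43030542-43030689). This region had the deposited promoter class and lay in an annotated intron. GATA4, an endodermal factor, had ARID1A and ARID2 in an intron (chr8:11564242-11564488), at 1897 bp from SNF5. At HNF4A the ARID1A peak was 53 bp wide. None of the 19 plasma protein genes and none of the 8 genes of the AP-1 family with an ARID region was included (0 of 19 and 0 of 8). These lists are too short for their counts to be read against the background of 5.11%. The same holds for the hepatocyte factors and for the SWI/SNF subunit and cell cycle genes below.

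Of 20 SWI/SNF subunit genes with an ARID region, 2 (10.0%) were included. ACTL6A, the actin-related subunit, had ARID1A and ARID2 at its promoter (chr3:179280889-179281079, 31 bp from SNF5). ARID2 itself had ARID1B and ARID2 over an exon 12947 bp from the deposited start (chr12:46298595-46299095, 84172 bp from SNF5). Of 13 cell cycle genes 1 (7.69%) was included, CDK1, the mitotic cyclin-dependent kinase (chr10:62538025-62538223, all 3 ARIDs, 284453 bp from SNF5). Its ARID1A, ARID1B and ARID2 peaks covered 53, 194 and 86 bp. No region was nearest to KLF6, MYC, EPHA2, RRAS, S100A14, SPOCK2 or TNS4, which are among the loci shown or tested in the study.

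By name groups, 5 of 105 cytoplasmic ribosomal protein genes with an ARID region were included (RPL15, RPL24, RPS13, RPS16 and RPS28), as were 15 of 239 zinc finger genes, 11 of 185 solute carrier genes, 3 of 146 microRNA genes, 4 of 103 small nuclear and nucleolar RNA genes and 1 of 48 replication-dependent histone genes (HIST1H2BM). The shares were 4.76% for ribosomal protein, 6.28% for zinc finger, 5.95% for solute carrier, 2.05% for microRNA, 3.88% for small nuclear and nucleolar RNA and 2.08% for histone genes, beside the 5.11% of all gene names. For the histone genes 43 of the 48 were nearest to a shared region with SNF5, against 40.03% of all gene names. Name groups can include pseudogenes, and their genes often lie in clusters.

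Of the 10 widest regions with all 3 ARIDs 9 were promoters, against 85.7% of all 49 such regions. They were at TPST1, a tyrosine sulfotransferase gene (chr7:65669612-65670722, 1111 bp), CCDC58 (chr3:122101718-122102731, 1014 bp), LINS (chr15:101141988-101142992, 1005 bp), SRPK1, a kinase of splicing factors (chr6:35887503-35888266, 764 bp), NOP14, a ribosome biogenesis factor (chr4:2964966-2965685, 720 bp), BAIAP2L1 (chr7:98046771-98047450, 680 bp, distal), VPS33A, a vesicle fusion factor (chr12:122750768-122751396, 629 bp), MIR1469 within NR2F2 (chr15:96876482-96877100, 619 bp), STK17A (chr7:43622374-43622975, 602 bp) and IMPA1 (chr8:82598101-82598656, 556 bp). The stretch common to all 3 ARIDs was short even there. It was 92 bp at TPST1, where the ARID2 peak covered 1111 bp and the ARID1A peak 105 bp, 181 bp at STK17A, and 0 bp at SRPK1 and BAIAP2L1. At LINS and VPS33A the nearest SNF5 peak was 108952 bp and 39873 bp away, whereas at STK17A it was 67 bp away.

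The longest stretches common to a pair were found for ARID1A with ARID2, at CTD-2007H13.3 beside CHD1, a chromatin remodeler gene (chr5:98263676-98264558, 529 bp), and at MPZL1 (chr1:167691424-167692003, 495 bp). For ARID1A with ARID1B they were at a distal site near MCM3, a replicative helicase subunit (chr6:52165749-52166306, 415 bp), a distal site near MAPKAPK3 (chr3:50638268-50638955, 324 bp) and NPPA-AS1 within CLCN6 (chr1:11902726-11903125, 279 bp). Both sites are distal by the deposited class. In Gencode v44 the MAPKAPK3 site overlapped an exon and a transcript start of another gene, whereas the MCM3 site was intergenic. For ARID1B with ARID2 they were at RP11-247A12.8 beside IER5L (chr9:131937715-131938644, 251 bp), AFG3L2, a mitochondrial protease gene (chr18:12377639-12377998, 213 bp), and RP11-175D17.3 within NR6A1 (chr9:127532584-127532932, 202 bp).

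Peaks were narrower in the regions without SNF5. Width is not independent of the selection, and its values are a description. The median region width was 304 bp (quartiles 216 and 424 bp), against 516 bp (343 and 767 bp) with SNF5. The ARID1A peaks covered a median of 196 bp per region against 373 bp with SNF5, the ARID1B peaks 167 against 228 bp, and the ARID2 peaks 181 against 289 bp. The stretch common to all ARIDs of a region had a median of 78.0 bp, against 123 bp. In 127 regions (20.6%, 17.6 to 24.0%) at least 1 ARID covered no more than 60 bp, close to the length of a 50 bp read, whereas this held for 9.51% of shared regions with SNF5. In 379 regions (61.5%) every ARID covered more than 100 bp, against 78.6% with SNF5. With all 3 ARIDs, 17 of 49 regions (34.7%, 22.9 to 48.7%) had no base common to all of them, against 22.6% (20.7 to 24.5%) with SNF5.

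**Figure D4:**
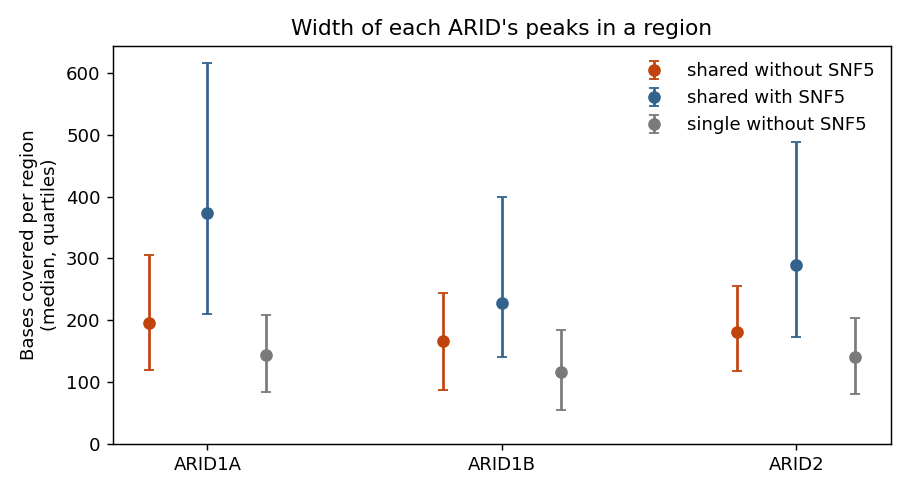
Points give the median number of bases covered by the peaks of each ARID per region and bars the quartiles, for shared regions without SNF5, shared regions with SNF5 and single-ARID regions without SNF5. For each ARID the shared regions without SNF5 lie between the other groups, as with the ARID1A medians of 196, 373 and 143 bp.

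The share of shared regions that lacked SNF5 varied by chromosome. It was lowest on chromosome 20, with 10 of 324 (3.09%, 1.68 to 5.59%), and chromosome 2, with 23 of 701 (3.28%, 2.2 to 4.88%), followed by chromosome 6 with 32 of 588 (5.44%, 3.88 to 7.58%). It was highest among autosomes on chromosome 21, with 6 of 29 (20.7%, 9.85 to 38.4%), chromosome 9, with 35 of 172 (20.3%, 15.0 to 27.0%), and chromosome 5, with 39 of 211 (18.5%, 13.8 to 24.3%). Chromosomes 2 and 20 together had 33 of 1025 (3.22%, 2.30 to 4.49%), against 583 of 5364 on the others (10.9%, 10.1 to 11.7%). Single-ARID regions, which are other regions of the same lists, lacked SNF5 least often on these chromosomes too, in 34.1% on chromosome 20 and 39.8% on chromosome 2. The density of SNF5 peaks was 14.4 per Mb on chromosome 20 and 8.79 on chromosome 2, against 4.82 on chromosome 9 and 2.51 on chromosome 21. On chromosome 19, however, the density was 17.3 per Mb and the share lacking SNF5 was 11.1%. Chromosomes were singled out after their values were seen, and no test was made. The DNA copy number of the chromosomes in HepG2 was not analysed here.

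**Figure D5:**
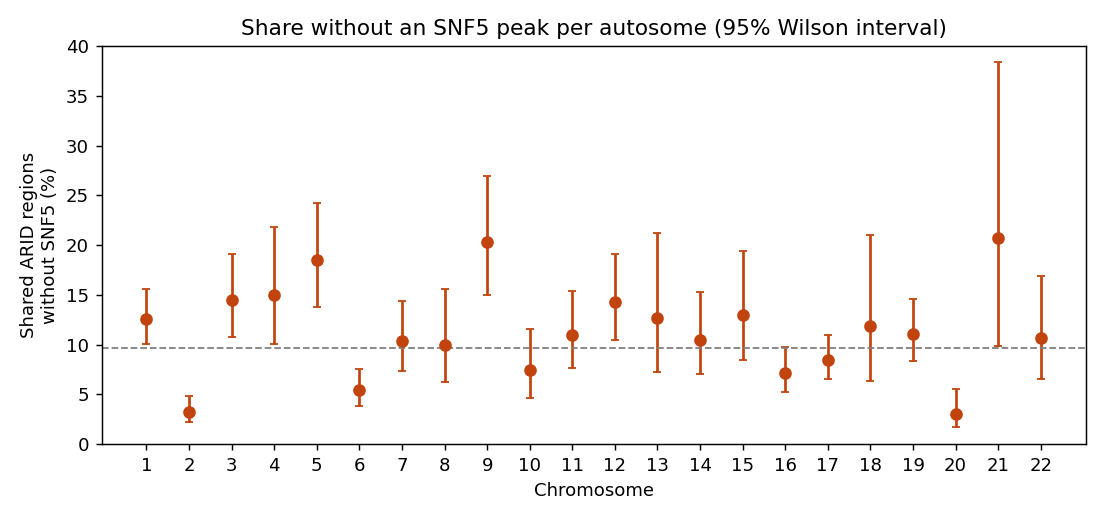
Points give the percentage of shared ARID regions without an SNF5 peak on each autosome, bars the Wilson 95% interval, and the dashed line the 9.64% over all chromosomes. Chromosomes 2 and 20 lie lowest, at 3.28% and 3.09%, and chromosomes 9 and 21 highest, at 20.3% and 20.7%.

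Exact copies of 50-base stretches were present in a small minority of the regions. For every 50-base stretch, the length of a read, its exact copies on both strands of GRCh37 were counted. Repetitive sequence without an exact copy passes as single-copy in this count, as did the CT repeat at SLITRK3 (100%). Other kinds of repeat were not counted. All stretches were single-copy in 547 of 616 regions (88.8%, 86.1 to 91.1%), against 83.1% (82.1 to 84.0%) with SNF5. Fewer than 50% of the stretches were single-copy in 17 regions (2.76%, 1.73 to 4.37%), against 4.3% (3.8 to 4.85%) with SNF5. Of the 54 regions beyond 100000 bp from SNF5, 4 were of this kind. By combination they were 2 of 390 for ARID1A with ARID2, 8 of 103 for ARID1A with ARID1B, 6 of 74 for ARID1B with ARID2 and 1 of 49 for all 3 ARIDs.

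Short motifs were counted on both strands in the 200 bp around the midpoint of each region. They describe letters in this window and not bound factors. The SP/KLF motif GGGCGG was found in 39.6% of the regions without SNF5 (35.8 to 43.5%), against 43.6% (42.3 to 44.9%) with SNF5 and 29.8% of all merged regions. The ETS motif CCGGAAG was found in 9.42% (7.35 to 12.0%), against 8.31% with SNF5 and 5.05% of all. The NF-Y motif CCAAT was found in 19.6%, against 20.5% and 20.1%, and the E-box CACGTG in 5.84%, against 6.18% and 4.51%.

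The AP-1 motif TGANTCA was found in 16 of 616 regions (2.60%, 1.61 to 4.18%), against 4.66% (4.15 to 5.23%) with SNF5 and 5.22% of all merged regions. The CRE TGACGTCA was found in 0.81% against 1.39% with SNF5, the NRF1 motif GCGCATGCG in 2.60% against 3.67%, the YY1 motif AAGATGG in 2.27% against 3.81% and the CTCF core AGGGGGC in 9.09% against 11.2%. Of the remaining motifs, the FOXA motif TGTTTAC was found in 2.27% against 3.19%, the HNF4 motif CAAAGTC in 2.27% against 3.22%, the HNF1 motif GTTAATNAT in 0.32% against 0.43%, the C/EBP motif TTGCNNAA in 5.84% against 6.76% and the TEAD motif CATTCCA in 1.79% against 2.11%. Over all merged regions these shares were 0.71% for CRE, 1.34% for NRF1, 3.47% for YY1, 8.5% for CTCF, 3.05% for FOXA, 3.45% for HNF4, 0.41% for HNF1, 7.91% for C/EBP and 2.94% for TEAD. Of the 14 motifs, 13 were less frequent without than with SNF5, and the intervals of both groups overlapped for each of the 14.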

How the data were processed

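Per the study's methods, the authors aligned single-end 50 bp reads to hg19 with bowtie2 2.2.1, filtered duplicates, merged the replicates of each antibody with samtools 0.1.19, called broad peaks with MACS2 at q 0.01, joined peaks within 100 bp and dropped blacklisted ones. Use of the input as control was not given in the sources used here. The deposited lists give peak starts and ends in bp, and for the ARIDs a feature class, nearest gene (Gencode 16) with its distance, and a chromatin state. The SNF5 list carries the peak caller's score. The deposited score was used only to describe SNF5 peaks and for 1 alternative.

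Peaks were pooled and merged in Python 3 scripts, with 616 regions also obtained by bedtools. Coordinates are given 1-based. GC and motifs came from the GRCh37 sequence, transcript starts and gene features from Gencode 44 lifted to GRCh37. A region took the promoter class or a promoter state if any of its peaks had it. Fisher exact tests (scipy), Newcombe intervals and logistic fits (statsmodels) were used for the comparisons. The members, gene lists and tests were chosen with earlier results of these data known. Regions named were the 10 farthest from SNF5, the 10 widest with 3 ARIDs, the 3 with the longest common stretch per pair, the 5 on each side of the selection edge, and those nearest to a listed gene. Expression data and the input library were not analysed here. A few regions that these rules would name or print are not reported here.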

Additional observations from a re-analysis of the deposited data

Results flagged for a closer look

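The difference between shared regions without and with SNF5 was not the same for all ARID combinations, by a likelihood ratio test of a logistic model with 3 degrees of freedom. The chi-square was 16.6 for promoter class, 19.7 for a transcript start within 1000 bp and 26.4 for CpG-rich sequence. For ARID1B with ARID2 the differences were 26.2, 26.3 and 19.95 percentage points, and for ARID1A with ARID2 they were -0.42, -1.90 and -7.46 points. The split was examined after the pooled values were known, and regions are not replicates.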

How the results depend on the processing

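The differences from single-ARID regions without SNF5 kept their direction and stayed past the threshold under the 29 alternatives run for the 4 features, with ranges of 23.8 to 43.8 points for promoter class, 17.1 to 41.8 for transcript starts, 27.8 to 47.1 for CpG-rich sequence and 14.03 to 34.0 for promoter state. None of these alternatives took the ARIDs present into account. Against shared regions with SNF5, 14 of 33 alternatives left the call as reported. Below, values are differences in points that passed the threshold, unless stated. With no SNF5 peak within 1000 bp, promoter class was 6.79 and CpG-rich sequence turned to 7.995. With only SNF5 peaks scoring 20 or more, promoter class was 6.29, transcript starts 5.28 and CpG-rich sequence 6.01, also reversed. On autosomes promoter class was 4.19. Within 5 width strata the values were 8.79 for promoter class, 7.58 for transcript starts and 3.86 for promoter state, and with log2 width and ARID combination in a logistic fit 7.45, 6.22 and 3.34. CpG-rich sequence turned to 3.99 and 2.41 in these fits without passing. By the widest peak, promoter class was 4.55 and promoter state 8.31, and with starts within 5000 bp transcript starts were 3.08. Within ARID combination (Mantel-Haenszel, chosen after seeing the data), promoter class was 4.2 and promoter state 3.13. The cause of these changes was not tested.

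The number of regions was 298 with no SNF5 peak within 1000 bp and 1763 with only SNF5 peaks scoring 20 or more, and between 478 and 750 under the other alternatives, including 599 with single-copy stretches of at least 50% (chosen after seeing the data). The median gap was 1432 bp between midpoints and 21393 bp with SNF5 scores of 20 or more. No paired analysis was possible because each subunit has 1 peak list from merged replicates, and no replicate could be left out for the same reason. Depth is unknown, so no limit of detection for SNF5 can be given.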
